A study of Rattus norvegicus with 2 samples.

Results

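Ribosome biogenesis factors are the proteins that transcribe, cut, modify and fold ribosomal RNA and load it with ribosomal proteins without staying in the finished ribosome. They were chosen by gene symbol, with earlier results of these data known. The symbols were those of the Polr1 subunits, the Nop, Nol, Utp, Rrp, Gnl and Exosc series and a fixed set of single names. Examples of the single names are Fbl, Ncl, Dkc1, Pes1 and Bop1. Of 14217 genes represented on the arrays, 74 matched, with 94 probe sets. Each gene was read from its probe set of highest mean signal. Genes whose mean signal on the log2 scale was under the median probe set of the arrays, 41.4, were set aside as too dim, and 69 of the 74 were kept as measured. All 69 were also above that level on each array taken alone. The 5 that were not measured were Polr1g, Noc3l, Nol3, Nol4 and Nol4l.

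The olive oil array held liver RNA of male Wistar rats, 2 months old, that had been fasted for 18 h, given 5 ml of extra virgin olive oil as a bolus (16 ml per kg) and killed 4 h later. The fasted array held liver RNA of rats of the same strain, sex and age after the same fast and no fat meal. Both were whole liver, and the labels give neither the number of rats behind an array nor the hour of killing. The total time without other food may also differ between the groups. With 1 array per group there are no replicates, so every difference below compares 2 arrays and has no p-value and no spread between animals. In a bulk sample, fewer cells of a type and less RNA per cell cannot be told apart.

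Ribosomal RNA is made in the nucleolus by RNA polymerase I as a long precursor. Small nucleolar RNPs modify it, a large assembly called the small subunit processome folds and cuts its 18S part, other factors assemble the large subunit, and the RNA exosome trims and degrades the spacers. In liver, as in other tissues, the pathway is known to follow growth signals, nutrients and hormones, and many of its genes are known targets of the transcription factor Myc, which with Max binds the E-box CACGTG.

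The measured members had a higher signal in the olive oil array almost as a whole. Of the 69 measured, 62 had a positive log2 difference (olive oil minus fasted), against 48.3% of all 9208 measured genes. At least 1.5-fold higher were 28 members, or 40.6%, against a background of 9.46% of all measured genes. Only 1 member, Exosc8, was at least 1.5-fold lower, against a background of 10.1%. At least 2-fold higher were 8 members, where the background was 3.25%, and none was at least 2-fold lower, where it was 2.94%. The median log2 difference was 0.51, or 1.42-fold, and that of all measured genes was -0.01. The middle of the member distribution, between its quartiles, ran from 0.22 to 0.79 on the log2 scale, against -0.28 to 0.24 for all measured genes. Centring each array on its median moved the background itself, to 7.61% higher and 12.7% lower, and 22 members were then at least 1.5-fold higher and 1 lower.

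**Figure D1:**
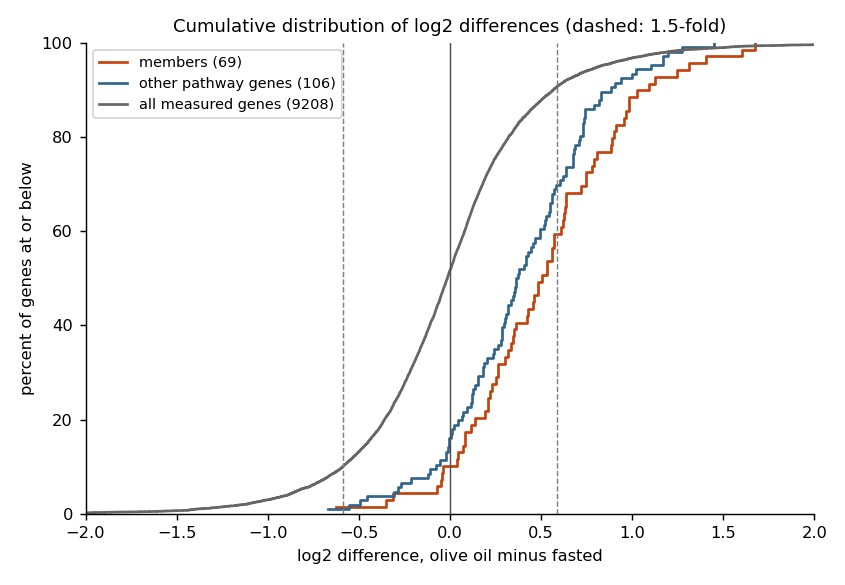
Cumulative percent of genes (vertical axis) at or below each log2 signal difference, olive oil minus fasted (horizontal axis), for 69 measured members, 106 other measured genes of the pathway and all 9208 measured genes, with dashed lines at 1.5-fold. The member curve lies to the right of the others, with a median of 0.51, and 7 of the 69 members lie below 0.

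Promoter sequence is shown first for the members that joined a difference of at least 1.5-fold with an E-box in the 250 bases before the gene start. They are Utp20, a very large scaffold of the small subunit processome, Gnl3, the nucleolar GTPase nucleostemin, Mybbp1a, a nucleolar regulator of polymerase I, Dkc1, the pseudouridine synthase dyskerin, and Wdr75, a small subunit processome protein. Nop58 and Nop56, the core proteins of box C/D small nucleolar RNPs, are added for the size of their differences. Each run is read 5′ to 3′ on the gene's strand from the RefSeq annotation of the GRCr8 assembly, ends at the base before the gene start, and has the E-box in capitals.
Utp20 (chr7:25102850-25103099, minus strand): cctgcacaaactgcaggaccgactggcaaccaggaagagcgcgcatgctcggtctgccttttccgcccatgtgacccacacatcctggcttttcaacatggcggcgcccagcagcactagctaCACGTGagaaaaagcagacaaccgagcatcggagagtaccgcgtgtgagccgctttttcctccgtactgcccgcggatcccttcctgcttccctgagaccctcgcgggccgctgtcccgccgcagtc
Gnl3 (chr16:6219783-6220032, minus strand): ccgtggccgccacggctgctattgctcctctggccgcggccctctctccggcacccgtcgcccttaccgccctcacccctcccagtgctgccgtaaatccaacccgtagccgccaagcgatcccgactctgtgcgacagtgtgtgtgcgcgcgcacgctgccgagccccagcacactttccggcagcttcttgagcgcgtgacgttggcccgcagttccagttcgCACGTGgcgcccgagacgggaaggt
Mybbp1a (chr10:57555208-57555457, plus strand): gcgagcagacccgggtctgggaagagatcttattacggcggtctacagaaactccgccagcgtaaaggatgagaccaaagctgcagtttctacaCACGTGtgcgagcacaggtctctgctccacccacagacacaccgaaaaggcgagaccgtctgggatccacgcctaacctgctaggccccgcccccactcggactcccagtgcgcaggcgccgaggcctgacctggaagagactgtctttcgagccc
Dkc1 (chrX:157751401-157751650, plus strand): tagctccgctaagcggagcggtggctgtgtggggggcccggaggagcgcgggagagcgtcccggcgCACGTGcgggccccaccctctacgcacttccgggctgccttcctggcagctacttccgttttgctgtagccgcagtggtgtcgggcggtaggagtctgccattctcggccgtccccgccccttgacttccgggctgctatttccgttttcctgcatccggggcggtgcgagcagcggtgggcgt
Wdr75 (chr9:55394982-55395231, plus strand): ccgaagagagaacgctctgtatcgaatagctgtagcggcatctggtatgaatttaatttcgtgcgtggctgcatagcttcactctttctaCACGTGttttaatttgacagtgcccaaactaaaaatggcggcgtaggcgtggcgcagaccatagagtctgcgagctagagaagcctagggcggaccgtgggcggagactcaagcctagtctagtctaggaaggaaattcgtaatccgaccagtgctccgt
Nop58 (chr9:68614824-68615073, plus strand): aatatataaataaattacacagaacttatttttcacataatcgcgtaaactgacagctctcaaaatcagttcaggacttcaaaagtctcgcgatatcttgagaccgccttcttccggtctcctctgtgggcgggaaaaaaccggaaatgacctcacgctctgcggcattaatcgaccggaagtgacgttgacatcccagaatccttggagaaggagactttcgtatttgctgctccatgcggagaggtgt
Nop56 (chr3:137929929-137930178, plus strand): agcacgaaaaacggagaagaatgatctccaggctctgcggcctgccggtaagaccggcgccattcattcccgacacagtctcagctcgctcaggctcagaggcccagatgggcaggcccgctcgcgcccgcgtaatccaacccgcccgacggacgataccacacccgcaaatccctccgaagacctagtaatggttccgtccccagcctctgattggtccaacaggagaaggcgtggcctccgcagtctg
The E-box begins 127 bases before the gene start in Utp20, 25 in Gnl3, 156 in Mybbp1a, 184 in Dkc1 and 160 in Wdr75. No CACGTG was found in the windows of Nop58 and Nop56, which says only that these letters are not in them.

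RefSeq windows were matched for 62 of the 69 measured members. CACGTG, which reads the same on both strands, was in 13 of the 62 (21.0%), against 9.06% of 7746 measured genes with a window and 5.59% of all 33469 windows of this length. Members with and without it had close shares past the line. The median log2 difference was 0.56 over the 13 members with an E-box and 0.46 over the 49 without. At least 1.5 times the fasted signal was found in 5 of the 13 and 18 of the 49. The share over all 9208 measured genes was 9.46%. Across all measured genes, those with an E-box had a median log2 difference of -0.0027.

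Other short motifs were searched on both strands in the same windows. The GC box GGGCGG was in 37 of the 62 members (59.7%), against 60.8% of measured genes and 30.5% of all windows. Of these 37 members, 19 were at least 1.5-fold higher, as were 4 of the 25 without it. The share over all measured genes, whatever their motifs, was 9.46%. All measured genes with a GC box had a median log2 difference of -0.02, and their share past 1.5-fold was not computed. Several motifs were searched, and the split by GC box was not tested. The ETS core CCGGAAG was in 22 members (35.5%), against 16.8% of measured genes and 7.27% of all windows. Of these 22 members, 8 were at least 1.5-fold higher, as were 15 of the 40 without it. Their median log2 differences were 0.42 with the motif and 0.50 without. GCGCATGC, part of the NRF1 motif, was in 5 members (8.06%), against 4.88% of measured genes and 2.2% of windows. TGACGTCA, the cyclic AMP response element, was in 2 members (3.23%), against 3.11% of measured genes and 1.59% of windows. A GGGCGG match may overlap other matches, and these counts describe letters, not binding.

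RNA polymerase I subunits were all higher in the olive oil array, 3 of 7 by at least 1.5-fold and none lower by that much. The share at least 1.5-fold higher was 42.9%, against 9.46% of all measured genes. Polr1b, the second-largest catalytic subunit, had a signal of 294.2 in the olive oil array and 144.6 in the fasted array, 2.03-fold higher. Polr1f, a stalk subunit, had 571.4 and 309.4, 1.85-fold higher, and its second measured probe set had a log2 difference of 1.15. Polr1e, of the subunit pair that stimulates initiation, had 193.2 after olive oil and 124.2 after fasting, 1.56-fold higher. Polr1a, the largest subunit and the partner of Polr1b in the active centre, was 1.38-fold higher, at 142.2 against 103.3. The subunits that polymerase I shares with polymerase III had smaller differences. Polr1c stood at 342.4 and 266.7, 1.28-fold higher, and Polr1d at 1018.6 and 848.6, 1.20-fold higher, with a second probe set at -0.07 on the log2 scale. Polr1h, a small subunit involved in RNA cleavage, was 1.08-fold higher, at 447.6 against 413.5. Polr1g, the partner of Polr1e, was too dim to be counted, at 36.8 and 28.7.

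Small nucleolar RNP proteins split sharply. Nop58 and Nop56 form the pair that bridges box C/D guide RNAs to the methyltransferase fibrillarin, and both were far above their fasted signal. Nop58 had 1022.3 in the olive oil array and 336.4 in the fasted array, 3.04-fold higher. Nop56 had 993.1 and 374.7, 2.65-fold higher, and a second, dimmer probe set agreed in sign at 109.3 against 58.9, a log2 difference of 0.89. Fbl, fibrillarin itself, was nearly level at 735.2 and 759.5, a log2 difference of -0.05. Among H/ACA proteins, which guide pseudouridylation, Dkc1 had 265.4 and 171.5, 1.55-fold higher, whereas Nop10 was level at 2957.8 and 3044.6, a log2 difference of -0.04. Of the H/ACA proteins outside the symbol rule, Gar1 had 226.1 after olive oil and 111.6 after fasting, 2.03-fold higher, and Nhp2 differed by 0.13 on the log2 scale. Proteins of the same RNP therefore had unequal differences, with 2 of 3 measured box C/D and 2 of 4 H/ACA core proteins at least 1.5-fold higher. The share of all measured genes was 9.46%. This grouping into core proteins, and those into complexes below, were made after the values were seen.

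**Figure D2:**
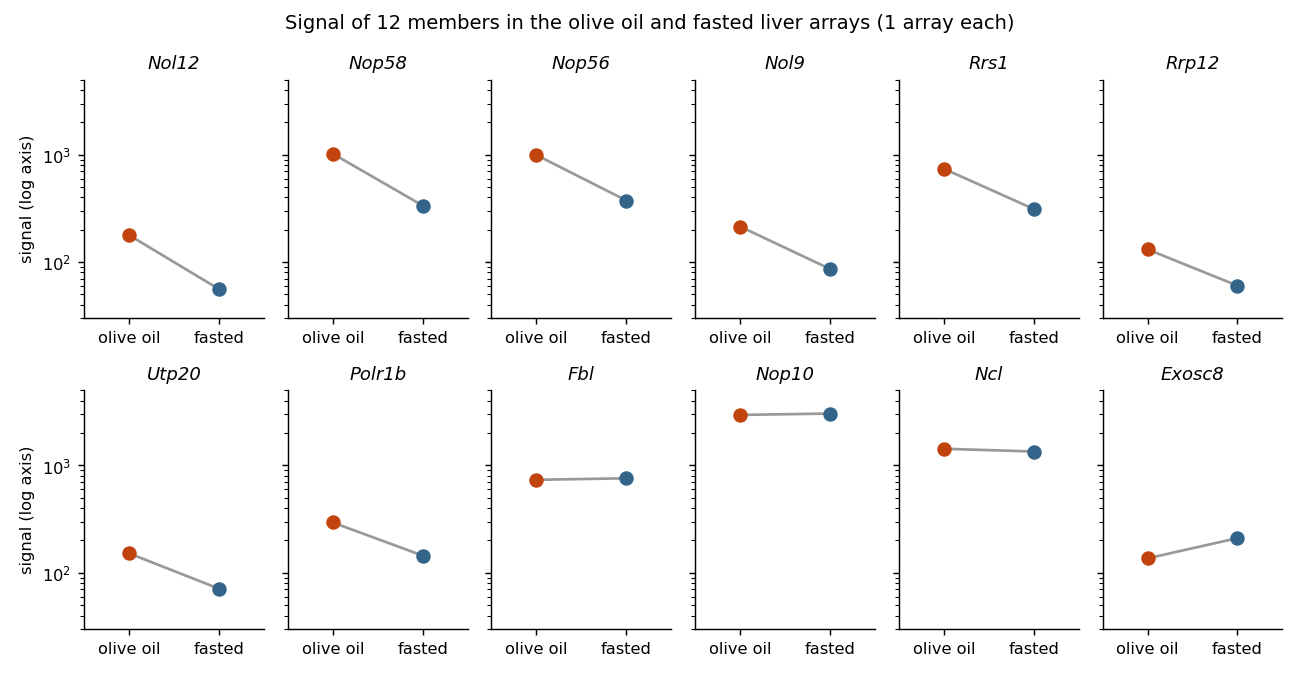
Signal (vertical log axis, the deposited linear signal) of 12 members in the olive oil array (left point) and the fasted array (right point), 1 array each. The 8 members at least 2-fold higher after olive oil slope down to the right, Fbl, Nop10 and Ncl are near level, and Exosc8 slopes up; heights are not comparable between genes, since probe sets differ in brightness.

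Of 23 small subunit processome genes, all measured, 8 (34.8%) were at least 1.5-fold higher, against 9.46% of all measured genes. None was at least 1.5-fold lower, against 10.1%, and 22 had a positive difference, with a median log2 difference of 0.43. Utp20 had the largest, at 151.8 after olive oil and 71.1 after fasting, 2.13-fold higher. Utp23, which takes part in the release of a small nucleolar RNA in yeast, had 204.9 and 103.9, 1.97-fold higher, on a probe set whose suffix marks several transcripts of a gene. Nol10, the counterpart of yeast Enp2, was 1.94-fold higher, at 272.9 against 140.9. Nop14, an early 18S assembly factor, had 153.1 and 99.4, 1.54-fold higher. Utp3, the counterpart of yeast Sas10, stood at 964.2 and 631.0, 1.53-fold higher. It was the member nearest above the 1.5-fold line, and Rrp9, the U3 RNP protein, was nearest below it at 243.5 against 163.7, 1.49-fold.

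Within the processome, the UTP-A complex, or t-UTP, binds the precursor first. It also counts Heatr1, outside the symbol rule. Wdr43 had 337.4 in the olive oil array and 172.6 in the fasted array, 1.95-fold higher, with a second probe set at 0.53 on the log2 scale. Utp15 had 247.8 and 159.2, 1.56-fold higher, and Wdr75 217.8 and 141.9, 1.53-fold higher, with second probe sets at 0.31 and 0.39 on the log2 scale. Utp4, whose human counterpart is mutated in a childhood liver cirrhosis, was 1.47-fold higher, at 493.6 against 334.7, and Nol11 was 1.34-fold higher, at 388.4 against 290.2. Heatr1 had 215.6 and 96.0, 2.25-fold higher. All 6 proteins of UTP-A thus lay between 0.42 and 1.17 on the log2 scale, with a median of 0.63.

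The UTP-B complex, which joins the precursor after UTP-A, had log2 differences from 0.04 to 0.68, with a median of 0.58. In it, 3 of 6 were at least 1.5-fold higher, against 9.46% of all measured genes. Its members by symbol were the low ones. Utp18 stood at 51.3 and 49.8, a log2 difference of 0.04, and Utp6 at 537.9 and 448.6, 1.20-fold higher, with 2 other probe sets at -0.11 and -0.23. The other subunits Wdr3, Pwp2 and Tbl3 were 1.60-fold, 1.60-fold and 1.55-fold higher, and Wdr36 1.43-fold, with 2 other measured probe sets of Wdr36 at 0.02 and -0.33 on the log2 scale. In the MPP10 complex, which ties the U3 RNA to the precursor, Imp3 was 1.23-fold and Imp4 1.10-fold higher, while their partner Mphosph10 had 354.5 and 185.3, 1.91-fold higher. Imp4 depended on the probe set, since a second, dimmer one had 175.3 after olive oil and 73.8 after fasting, a log2 difference of 1.25, and the mean over its probe sets was 0.69.

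The remaining processome members were all within 1.5-fold. Utp14a, an activator of the helicase Dhx37, was 1.45-fold higher, Nop9 1.35-fold and Nol6 1.28-fold. Utp25, Nol7, Noc4l and Utp11 had log2 differences between 0.07 and 0.21. Rrp7a was the exception in direction, at 84.2 in the olive oil array and 107.3 in the fasted array, 1.27-fold lower. Among the factors that finish the small subunit, Rrp12, needed in yeast for export of the subunits from the nucleus, had 131.3 after olive oil and 60.3 after fasting, 2.18-fold higher. Its other 2 probe sets were below the filter, at 70.5 against 7.7 and 46.1 against 9.4, and the mean over all of its probe sets was 1.81 on the log2 scale. These 2 fasted signals were raised to 12.8, the floor used for low values, so this mean depends on that floor. Nob1, the nuclease that makes the final cut of 18S RNA, was 1.37-fold higher, at 521.3 against 380.4.

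Large subunit assembly held the most members past the line. Of its 19 measured genes, 11 (57.9%) were at least 1.5-fold higher, against 9.46% of all measured genes. None was at least 1.5-fold lower, against 10.1%, and 18 had a positive difference, with a median log2 difference of 0.75, or 1.68-fold. Nol12, the counterpart of the yeast exonuclease Rrp17, had the largest difference of all members, at 178.4 in the olive oil array and 56.0 in the fasted array, 3.19-fold higher. Nol9, a kinase of RNA 5′ ends that acts on the spacer before 28S, had 214.2 and 86.3, 2.48-fold higher. Rrs1, which with Rpf2 brings the 5S RNP into the large subunit, had 740.2 and 312.2, 2.37-fold higher, and Rpf2, outside the symbol rule, was 1.66-fold higher, at 179.8 against 108.0. The symbol rule also caught Rrs1-ps9, a pseudogene of Rrs1, at 118.8 against 104.0, 1.14-fold higher. Its probe set and that of Rrs1 may bind each other's transcripts, so the share of each is uncertain.

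The 3 proteins of PeBoW, the complex of Pes1, Bop1 and Wdr12 that is required for making 28S RNA and for proliferation, had similar differences. Wdr12 had 254.8 in the olive oil array and 148.3 in the fasted array, 1.72-fold higher. Bop1 had 466.3 and 278.2, 1.68-fold higher. Pes1 had 265.5 and 178.9, 1.48-fold higher, just under the line.

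GTPases of the nucleolus differed from their relative. Gnl3 had 2028.3 after olive oil and 1077.1 after fasting, 1.88-fold higher, and Gnl2, which in yeast (Nog2) acts as a placeholder for the export factor Nmd3, 171.8 and 99.5, 1.73-fold higher. Gnl3l, a close relative of Gnl3, was level at 667.0 and 685.3, a log2 difference of -0.04. Rrp15 was 1.85-fold higher, at 183.8 against 99.3, and Nol8 1.98-fold, at 106.1 against 53.7, with a second probe set at 0.70 on the log2 scale. Ebna1bp2, the counterpart of yeast Ebp2, had 536.4 and 319.2, 1.68-fold higher, and Noc2l, whose yeast counterpart Noc2 moves large subunit precursors out of the nucleolus, 253.8 and 154.3, 1.64-fold higher. The rRNA methyltransferases of the group were under the line, Rrp8 at 1.47-fold and Nop2 at 1.40-fold higher. The remaining members, Rrp1b, Nop16, Rrp1 and Nop53, which is known to bring the exosome to the precursor, had log2 differences between 0.04 and 0.35.

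The RNA exosome stood apart in holding members on both sides. Of 9 measured genes, 1 was past 1.5-fold in each direction, 11.1% either way and near the background shares, and the median log2 difference was 0.32. Exosc10, the nuclear 3′ exonuclease, had 162.4 in the olive oil array and 92.7 in the fasted array, 1.75-fold higher. Exosc8, a subunit of the ring, had 136.3 and 210.3, 1.54-fold lower, and its neighbour in the list, Exosc4, also a ring subunit, 287.6 and 356.7, 1.24-fold lower. The other measured ring subunits went the other way, Exosc5 at 1.44-fold, Exosc9 at 1.42-fold and Exosc7 at 1.19-fold higher. The 3 cap subunits Exosc1, Exosc3 and Exosc2, which thread RNA into the ring, lay between 0.22 and 0.48 on the log2 scale. Second probe sets were at 0.06 for Exosc1 and 0.61 for Exosc3. That of Exosc3 had 57.5 after olive oil and 37.7 after fasting, its fasted signal under the filter level. Of partners outside the symbol rule, none of 6 measured was past 1.5-fold, and Mtrex, the helicase that feeds the exosome, was 1.28-fold higher.

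Of the abundant nucleolar regulators, Mybbp1a had 499.8 in the olive oil array and 268.2 in the fasted array, 1.86-fold higher, and nucleolin, Ncl, was level at 1430.5 and 1349.0, a log2 difference of 0.08. Npm1 was not analysed here, since its probe sets carry more than 1 gene. Gnl1, which the symbol rule caught although it is not known as a ribosome factor, was level at 168.2 and 177.0. Nol3, an inhibitor of apoptosis, Nol4 and Nol4l were also caught by name only, and all were dim.

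**Figure D3:**
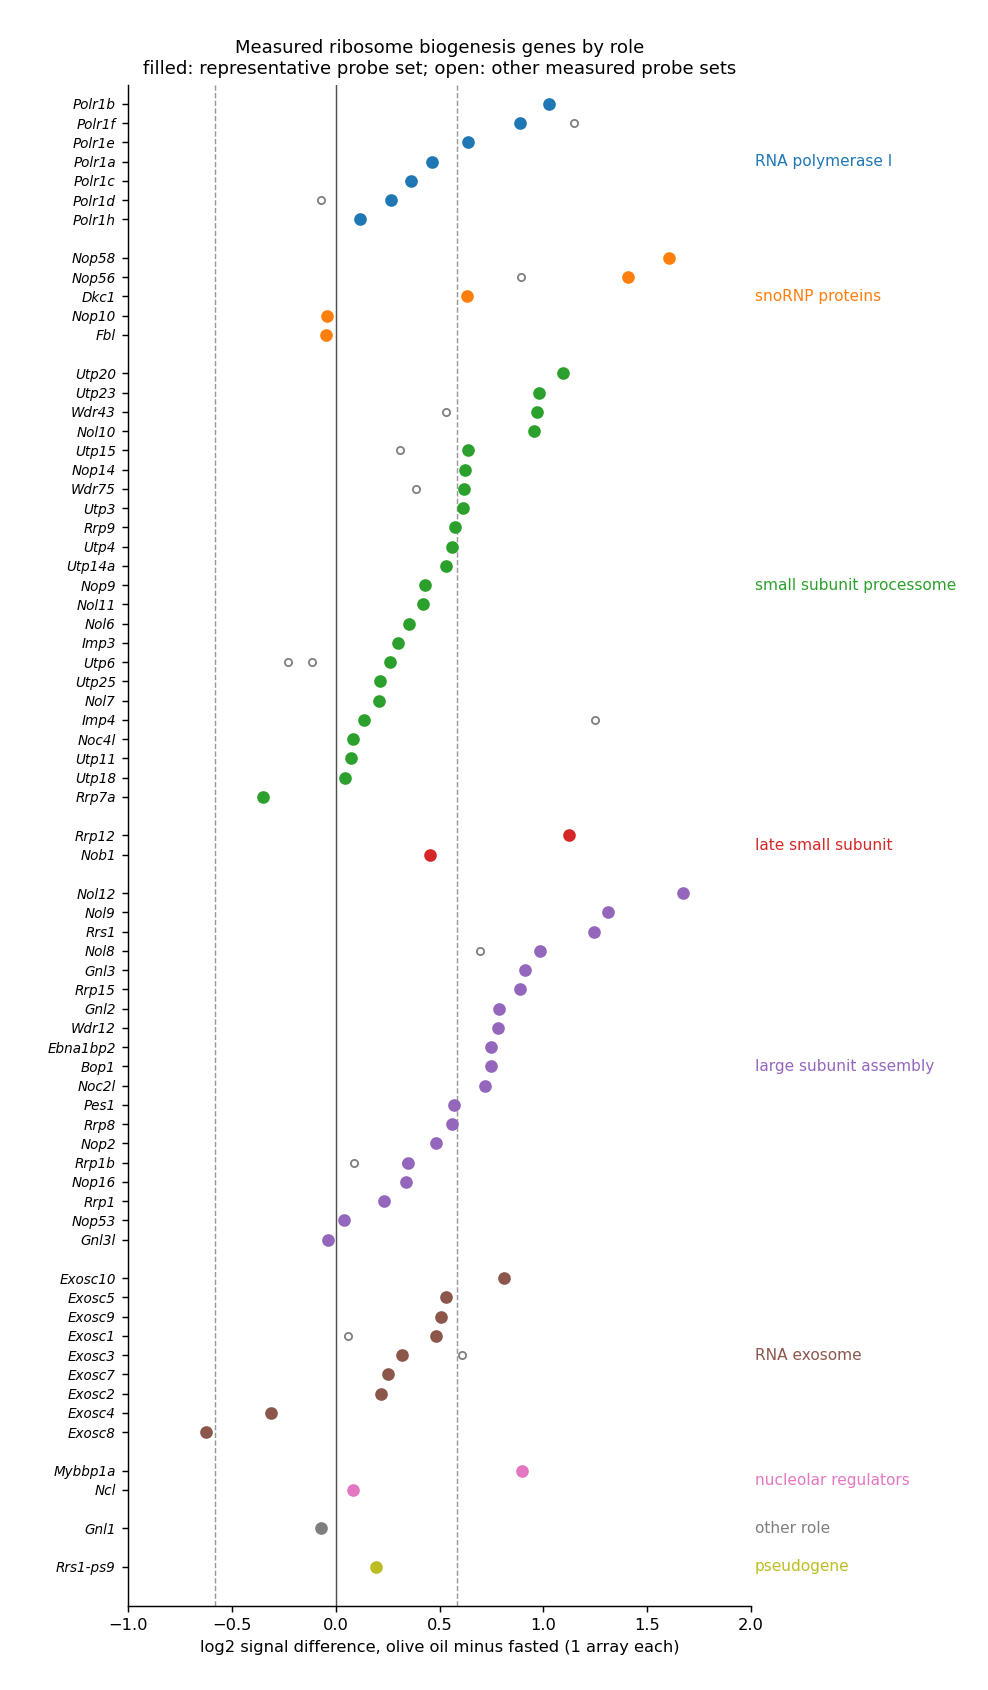
Log2 signal difference, olive oil minus fasted (horizontal axis), of each of the 69 measured members (rows, by role), 1 array per group, filled for the probe set of highest mean signal and open for other measured probe sets, with dashed lines at 1.5-fold. The 28 filled points to the right of the dashed line come mostly from large subunit assembly (11) and the small subunit processome (8), and 1 point, Exosc8, lies to the left of the other line.

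The members were compared across their own probe sets, as a check of probe error. Of 12 members with at least 2 measured probe sets, 10 were positive on all of them, and Polr1d and Utp6 had both signs. Of the 83 measured probe sets, 73 had a positive difference, 33 were at least 1.5-fold higher and 1 was at least 1.5-fold lower. These shares were not computed over all measured probe sets, and over all measured genes they were 48.3%, 9.46% and 10.1%. The 33 include the second probe set of Exosc3, whose fasted signal was under the filter level. The pooled SD of log2 differences between probe sets of a gene was 0.31 for the 12 members and 0.35 for 2290 genes of the arrays. Of the 28 members at least 1.5-fold higher, 14 lay within 0.31 of the line, as did Exosc8 on the lower side, and another 19 members lay within 0.31 below the upper line. Most members (58 of 74) had 1 probe set and no such check.

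Members at least 1.5-fold higher were found among dim and bright members, and the part of array noise in their differences was not tested. The members were cut by mean signal into 3 bins of 23. In the dimmest bin, 11 of 23 were at least 1.5-fold higher, against 13.4% of all measured genes in that signal range. In the middle bin it was 9 of 23, against 7.9%, and in the brightest bin 8 of 23, against 6.49%. The median log2 differences of the bins, dim to bright, were 0.56, 0.53 and 0.34. Across the 69 members, log2 difference and mean log2 signal correlated weakly (Pearson r = -0.13, Spearman rho = -0.15), a description across genes of the same 2 arrays.

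**Figure D4:**
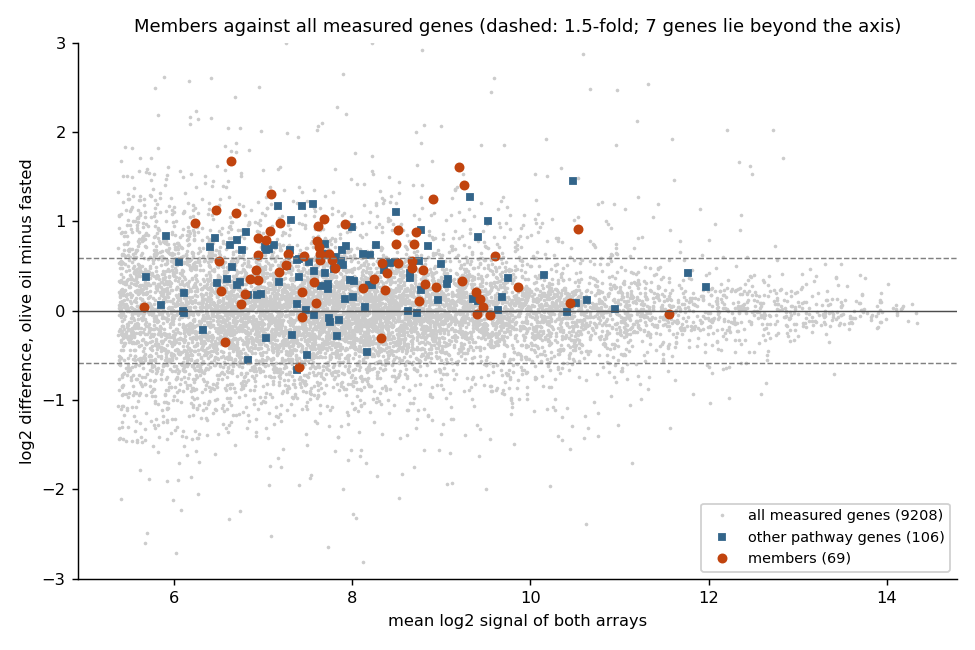
Log2 signal difference, olive oil minus fasted (vertical axis), against the mean log2 signal of both arrays (horizontal axis) for all 9208 measured genes, 106 other pathway genes and 69 members, with dashed lines at 1.5-fold; 7 genes lie beyond the axis. Members above the upper line occur over most of the signal range, and the spread of all genes narrows as signal increases.

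Other genes of the pathway, outside the symbol rule, had a like direction. They came from a list of polymerase I factors, further RNP, small and large subunit factors and exosome partners, which was written with earlier results of these data known. Of 106 measured, 89 had a positive difference, with a median log2 difference of 0.37. At least 1.5-fold higher were 32 (30.2%), against 9.46% of all measured genes, and 1 was at least 1.5-fold lower, against 10.1%. Dcaf13, the counterpart of the yeast processome protein Sof1, had 2364.7 in the olive oil array and 865.8 in the fasted array, 2.73-fold higher. Tsr1, a late 40S assembly factor, had 992.7 and 410.5, 2.42-fold higher. Taf1d, of the promoter selectivity factor of polymerase I, had 286.0 and 124.7, 2.29-fold higher. Wdr46 was 2.25-fold, Ppan, a large subunit factor, 2.15-fold and Nifk, a partner of the proliferation antigen Ki-67, 2.00-fold higher, with a second probe set of Nifk at 1.27 on the log2 scale.

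The other small subunit factors resembled the members of that role, with a median log2 difference of 0.51. At least 1.5-fold higher were 14 of 36 (38.9%), against 9.46% of all measured genes. Besides those named they were the helicases Ddx21 at 1.78-fold and Ddx52 at 1.61-fold, the atypical kinases Riok2 at 1.78-fold and Riok1 at 1.66-fold, Ngdn at 1.67-fold and Esf1 at 1.67-fold. A second probe set of Ddx52 was at 0.30 on the log2 scale, and 2 of Esf1 were at 0.81 and 0.49. Of 39 genes listed as other large subunit factors, 14 (35.9%) were at least 1.5-fold higher, again against 9.46%, with a median of 0.47. Nip7 was 1.87-fold, Ftsj3, an rRNA methyltransferase, 1.84-fold, Rbm28 1.76-fold, Mak16 1.73-fold, Brix1 1.66-fold and Nle1 1.64-fold higher. Ddx31, Rbm19 and Ddx56 were 1.66-fold, 1.64-fold and 1.60-fold higher, the export adaptor Nmd3 1.54-fold and Zfp622, a late 60S factor, 1.52-fold. Rbm19 was counted in the large subunit list, although its yeast counterpart Mrd1 is known as a small subunit processome protein. The shares of the large and small subunit lists were not recomputed with Rbm19 moved. Wdr18 was the exception, at 132.5 after olive oil and 210.4 after fasting, 1.59-fold lower. It belongs to the rixosome, the complex that cuts the second spacer, together with Nol9, which was 2.48-fold higher. The nuclease of that complex and partner of Nol9, Las1l, had a log2 difference of -0.29, Pelp1 -0.27, Tex10 0.31 and Senp3 0.46.

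The list of polymerase I factors held subunits shared with other polymerases beside regulators. Of its 18 measured genes, 2 were at least 1.5-fold higher, Taf1d and Nolc1, and the median log2 difference was 0.13. That share, 11.1%, was near the 9.46% of all measured genes. The 5 shared subunits, all named Polr2, lay between -0.01 and 0.15, and the 13 others had a median of 0.29. Nolc1, a nucleolar chaperone, was 1.55-fold higher, with 2 other measured probe sets at 0.95 and 0.26 on the log2 scale. Ubtf, the architectural factor of rRNA gene promoters, was level on its brightest probe set at 179.2 and 178.2, but its other 2 measured ones disagreed, at 0.44 and -0.73 on the log2 scale. Rrn3, which recruits the polymerase, had 592.1 and 481.8, 1.23-fold higher. Tcof1, treacle, was dim at 59.1 and 56.4, a log2 difference of 0.07. Myc had 192.2 after olive oil and 148.0 after fasting, 1.30-fold higher, and its partner Max was level on its brightest probe set at 801.0 and 795.4 but had 148.8 and 98.5 on a second one, a log2 difference of 0.60. The 7 other snoRNP genes were the core proteins Gar1 and Nhp2 given above and 5 assembly factors. Of these 7 genes, 2 (28.6%) were at least 1.5-fold higher, against 9.46% of all measured genes. They were Gar1 and the assembly factor Nopchap1, at 1.60-fold.

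**Figure D5:**
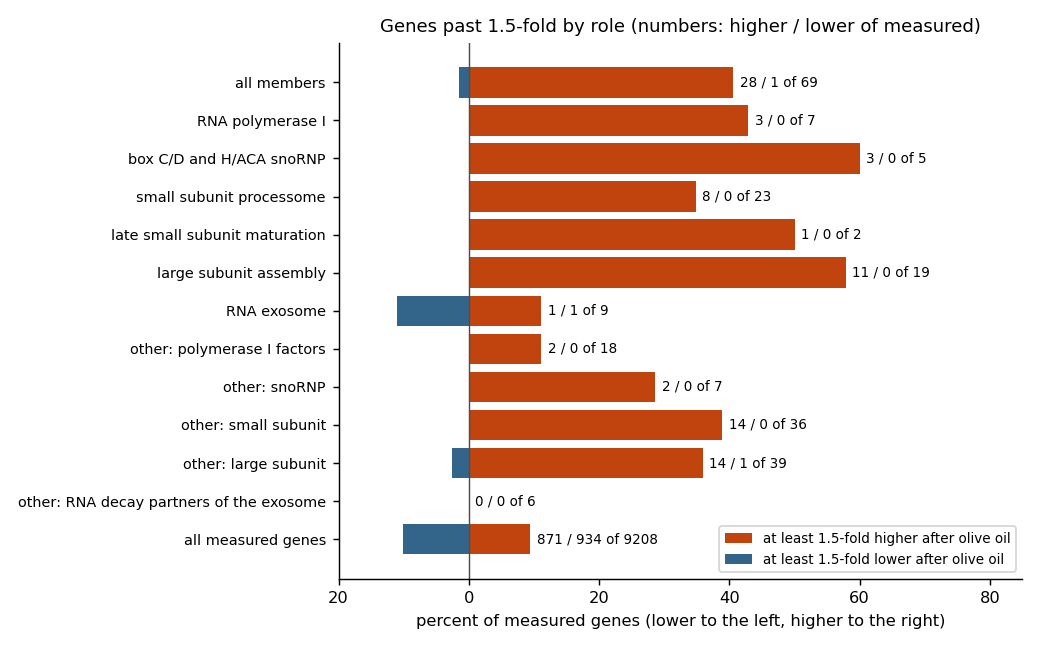
Percent of measured genes at least 1.5-fold higher (bars to the right) or lower (bars to the left) after olive oil, for all members, 6 of their roles, 5 lists of other pathway genes and all measured genes, with the counts beside each bar. Bars of the large subunit, small subunit and snoRNP lists reach 28.6% to 60.0% to the right, and that of the RNA polymerase I members 42.9%. The exosome, its partners and the other polymerase I factors lie between 0% and 11.1%.

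Hepatocyte markers were bright and nearly level, and of the other marker lists that of neutrophils differed most. Summed over 7 hepatocyte genes the signal was 105578 in the olive oil array and 103283 in the fasted array, a ratio of 1.02, and none was past 1.5-fold. Sums over Kupffer, stellate and endothelial markers had ratios of 1.16, 1.03 and 1.12. Of 3 neutrophil genes listed, S100a9 and S100a8 were found, both higher, at 253.1 against 62.9 and 75.7 against 32.0, which sum to 328.8 and 94.9. The fasted signal of S100a8 was under the filter level of 41.4, so it counted as measured only through its olive oil signal. Cholangiocyte and lymphocyte markers were mostly dim, with ratios of 0.72 and 0.83. The only measured marker of each was lower, Epcam at 123.0 against 179.7 and Ptprc at 108.3 against 158.6. The sum over 8 proliferation markers had a ratio of 1.08, most of it from Pcna at 1164.1 and 983.9. Of the 5 that were measured none was past 1.5-fold, with Pcna and Mcm5 at 0.24 and 0.32 on the log2 scale, Mcm2, Cdk1 and Top2a between -0.55 and -0.51, and a median of -0.51. Ratios of 3′ to 5′ probe signal, which increase as RNA degrades, were 3.20 after olive oil and 2.63 after fasting for beta-actin, and 1.34 and 1.28 for Gapdh. The part of neutrophil RNA and of RNA integrity in the members' differences was not tested.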

How the data were processed

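Total RNA of rat liver, 2 micrograms, was labelled with biotin as cRNA for Affymetrix arrays, per the labels' protocols. The deposited table holds linear signal intensities, 1 for each probe set and array. They were made in Affymetrix Expression Console, per the submitters' processing notes; its algorithm is not given in the sources used here, nor its version. With 2% of probe sets trimmed at each end, the mean intensity was 200.1 on either array, a common level that takes the bulk of transcripts as equal.

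From the 31042 non-control probe sets, signals under the 25th percentile (12.8) were raised to it and log2 was taken, with no further normalization. Measured meant a mean log2 signal at or above the median, 5.37. Genes came from the platform annotation (20826 probe sets with 1 gene, 436 with several, 9780 with none listed), updated by gene ID through a RefSeq table of GRCr8 that held 20758 of them; 14217 genes were represented and 9208 measured. Groups follow the sample titles. With 1 array per group there was no test, and folds of 1.5 and 2 took its place; the number of arrays limits the precision. Named were all measured members past 1.5-fold, the largest differences of each role and a fixed set of key genes; the other members are given by range. The members and lists were chosen with earlier results of these data known. Alternatives changed the scaling, the floor, the dim filter, the choice of probe set and the membership. Functions were tested on simulated data. Python 3.11.15, numpy 2.4.6, pandas 2.3.3, statsmodels 0.14.6 (loess) and matplotlib 3.10.9 were used.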

Additional observations from a re-analysis of the deposited data

How the results depend on the processing

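13 alternatives were tried, 1 of them, leaving out Rrs1-ps9, chosen after seeing the data. The median log2 difference of the members lay between 0.43 (arrays centred on their medians) and 0.52 (loess) in all of them, and that of the other pathway genes between 0.29 and 0.38. With a filter at the 75th percentile, which tests fewer genes, 16 of 43 members were at least 1.5-fold higher, against 7.01% of all measured genes. There 39 of the 43 had a positive difference, 4 reached 2-fold higher and 0 reached 1.5-fold lower, against 7.43%. Under the other alternatives the number at least 1.5-fold higher lay between 22 and 30, and the share of all measured genes between 7.61% and 12.8%. With an offset of 16, which shrinks the differences of dim genes, 5 reached 2-fold higher and 25 reached 1.5-fold higher, against 7.74% of all measured genes. With it 0 reached 1.5-fold lower, against 8.3%. No member was at least 2-fold lower under any alternative. Of 518 values of 40 named members, 516 moved by less than the probe error and none that was past 1.5-fold changed sign. The others were Imp4 (0.69) and Rrp12 (1.81) as means over probe sets. Most of the 518 were the same value again, since the floors, dim filters, symbols and membership left the named members' values as they were. Only the scalings, the offset and, for some members, the mean over probe sets changed a value. No paired analysis was possible because each group is 1 array.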

Other observations

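The control probe set for 5S ribosomal RNA, which is not a member and whose RNA is made by polymerase III, had a signal of 198.9 in the olive oil array and 183.1 in the fasted array. Precursor and mature forms of the large ribosomal RNAs were not analysed here, so these arrays give the messages of the factors and no measure of ribosome production.

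Several genes of the same particle, and a pair of related GTPases, had unequal differences or differences of opposite sign, on measured probe sets. Fbl had a log2 difference of -0.05 beside 1.60 for Nop58, Gnl3l -0.04 beside 0.91 for Gnl3, Exosc8 -0.63 beside 0.53 for Exosc5, and Wdr18 -0.67 beside 0.46 for Senp3. Each rests on 1 measured probe set per gene.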
